A study of Homo sapiens with 6 samples.

Results

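The USP and OTU genes encode deubiquitinases, the enzymes that cut ubiquitin from proteins or take ubiquitin chains apart. They were read here from RNA sequencing of the leukaemia line HL-60, whose cells resemble promyelocytes. Members were the rows of the expression table whose symbol is USP followed by a number, or starts with OTUD or OTUB, without USPL1. This gave 64 of 17911 genes, 54 of them USP genes and 10 OTU genes. By symbol the rule also takes in USP6NL, a GTPase-activating gene of Rab proteins that does not encode a deubiquitinase. The treated group is 3 libraries of cells given 10 µM amiodarone for 24 h. Amiodarone is an antiarrhythmic drug, a cationic amphiphilic compound that collects in lysosomes. The other group is 3 libraries labelled control, with no statement of a vehicle. All 6 come from the same line, and the labels do not say whether replicates were separate cultures, so the p-values rest on a library-to-library spread that may be technical. The series title names amiodarone as a SIRT3 activator that causes autophagic and mitophagic cell death, and the contrast addresses how deubiquitinase transcripts stand in treated cells.

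Ubiquitin is attached to proteins singly or in chains, and the attached form decides whether a protein is degraded, moved or recruited into a complex. USP and OTU proteins are cysteine proteases that reverse this, and each acts on its own set of substrates and chain types. Some work at the proteasome, some on histones or at stalled replication forks, some at endosomes or on mitochondria, and others in signalling from innate immune receptors. USP30 is known for opposing mitophagy, the removal of damaged mitochondria.

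The deposited values behave like RPKM, which are read counts scaled by transcript length and library depth, so levels of different genes are set side by side below per unit of length. From the step size of low values, depth was estimated at 16200000 to 16600000 reads for amiodarone libraries and 18000000 to 18200000 for controls. Correlations of log2 values were 0.9975 to 0.9982 within groups and 0.959 to 0.960 between them. All 8 promyelocyte genes looked up were detected, with a summed value of 3202 to 3266 after amiodarone and 7066 to 7190 in controls, most of it MPO (2613 after amiodarone and 5962 in controls on average). In that list 6 genes fell, MYB rose and CD33 was not called. A list of 8 monocyte and macrophage genes summed to 136.9 to 140.7 after amiodarone and 77.72 to 82.57 in controls, with CD14 and CD163 under 1 in every library. Lymphoid and erythroid markers (6 of 9 in the table) summed to 11.73 to 12.38 after amiodarone and 13.28 to 14.8 in controls. Epithelial and fibroblast markers (7 of 8) summed to 2.19 to 2.98 after amiodarone and 3.15 to 3.27 in controls. In bulk RNA, fewer cells of a type and less RNA per cell cannot be told apart, and the part of these marker differences in the results below was not tested.

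The promoters of 6 of the genes with the largest changes are shown first, as the 120 bases before the RefSeq start (GRCh38.p14), 5′ to 3′ on the gene's strand. Of the 64 members 48 have a promoter in that table. Capitals mark matches to any of 8 short motifs searched on both strands, and neighbouring matches can run together. The first 3 belong to genes that were higher after amiodarone. USP3 (chr15:63504473-63504592, plus strand) encodes a histone deubiquitinase, USP15 (chr12:62260284-62260403, plus strand) an enzyme of SMAD and mitophagy signalling, and USP25 (chr21:15729862-15729981, plus strand) a regulator of TRAF signalling.
USP3: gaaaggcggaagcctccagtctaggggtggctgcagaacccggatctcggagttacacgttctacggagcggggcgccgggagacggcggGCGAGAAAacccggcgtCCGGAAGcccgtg
USP15: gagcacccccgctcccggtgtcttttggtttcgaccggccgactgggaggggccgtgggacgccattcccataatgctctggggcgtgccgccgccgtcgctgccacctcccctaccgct
USP25: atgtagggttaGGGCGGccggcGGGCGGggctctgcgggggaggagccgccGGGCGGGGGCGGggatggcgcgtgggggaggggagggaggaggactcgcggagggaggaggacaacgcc

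The other 3 belong to genes that were lower. USP1 (chr1:62436275-62436394, plus strand) encodes the enzyme that acts on FANCD2 and PCNA, USP11 (chrX:47232889-47233008, plus strand) a relative of USP15 with a role in DNA repair, and USP5 (chr12:6852030-6852149, plus strand) the enzyme that takes apart unanchored ubiquitin chains.
USP1: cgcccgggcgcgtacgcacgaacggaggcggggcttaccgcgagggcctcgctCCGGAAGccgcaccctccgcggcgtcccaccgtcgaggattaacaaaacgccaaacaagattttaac
USP11: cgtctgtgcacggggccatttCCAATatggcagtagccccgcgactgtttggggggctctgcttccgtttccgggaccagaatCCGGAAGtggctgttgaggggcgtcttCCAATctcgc
USP5: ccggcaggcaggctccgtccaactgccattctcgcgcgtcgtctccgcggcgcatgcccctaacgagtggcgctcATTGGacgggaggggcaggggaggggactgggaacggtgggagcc

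Shares of promoters with a match are given over the whole window of 250 bases before to 50 bases after the start. The CCAAT box, searched as CCAAT, was present in 2 of 13 promoters of members called higher and 8 of 16 of those called lower, against 35.7% of all 27305 promoters. A GC box (GGGCGG) was present in 11 of 13 and 13 of 16, against 44.6% of all promoters. The ETS motif (CCGGAAG) was found in 5 of 13 and 6 of 16, against 10.7%. An E-box (CACGTG) was in 2 of 13 and 3 of 16 (7.4% of all), and the E2F motif (TTTNNCGC) in 2 of 13 and 0 of 16 (6.9% of all). The C/EBP-ATF motif (TGATGNAA), CRE (TGACGTCA) and the NRF1 motif were in none of these 29 promoters, against 3.7%, 2.0% and 1.4% of all promoters. In the 13 promoters of members not called, a GC box was present in 11, the CCAAT box in 4 and the E2F motif in 3. The ETS motif, the E-box and the C/EBP-ATF motif were each in 1 of these 13. The share of GC boxes thus did not set called members apart from those not called. All 27305 promoters include those of genes that were not tested here. These letters describe the windows and say nothing of a factor's binding.

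In the deposited values, amiodarone libraries held USP and OTU transcripts at slightly lower summed levels, with individual genes moving in both directions. The 64 values summed to 634.8, 642.8 and 646.8 after amiodarone and 678.8, 658.1 and 658.5 in controls. The summed values of the groups did not overlap. The size of this small gap depends on how libraries are scaled, and sums under other scalings were not formed. The test took genes with a value of 1 or more in 3 or more libraries, which kept 52 of the 64. The limma fit on log2(value + 1) over all 11445 tested genes, with Benjamini-Hochberg adjustment and a threshold of 0.05, called 16 of these 52 higher and 19 lower. Among all tested genes 33.5% were called higher and 44.8% lower, and the members' shares were 30.8% and 36.5%. In either direction 67.3% of tested members were called, beside 78.3% of all tested genes, so being called did not set the family apart.

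Changes in the family were small. The median log2 fold change was -0.04 over tested members and -0.06 over all tested genes. With median-of-ratios scaling these medians were -0.01 and -0.026, and with libraries scaled to equal sums -0.114 and -0.145. The quartiles in the reported fit were -0.28 and 0.23 for members and -0.36 and 0.24 for all tested genes. Called changes of at least 1.5-fold on log2(value + 1) were found in 17.3% of members, beside 21.1% of all tested genes. Of these, 5 members were higher (9.62%, beside 9.07% of all tested genes) and 4 lower (7.69%, beside 12%). In the limma fit 0 of 52 members reached 2-fold on that scale, beside 5.15% of all tested genes, while 36 members (69.2%) had an unadjusted p under 0.05, beside 79.7% of all tested genes. The groups did not overlap in 41 of 52 members (78.8%), with amiodarone above in 18 and below in 23, beside 79.3% of all tested genes. All 35 called members were among the 41.

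**Figure D1:**
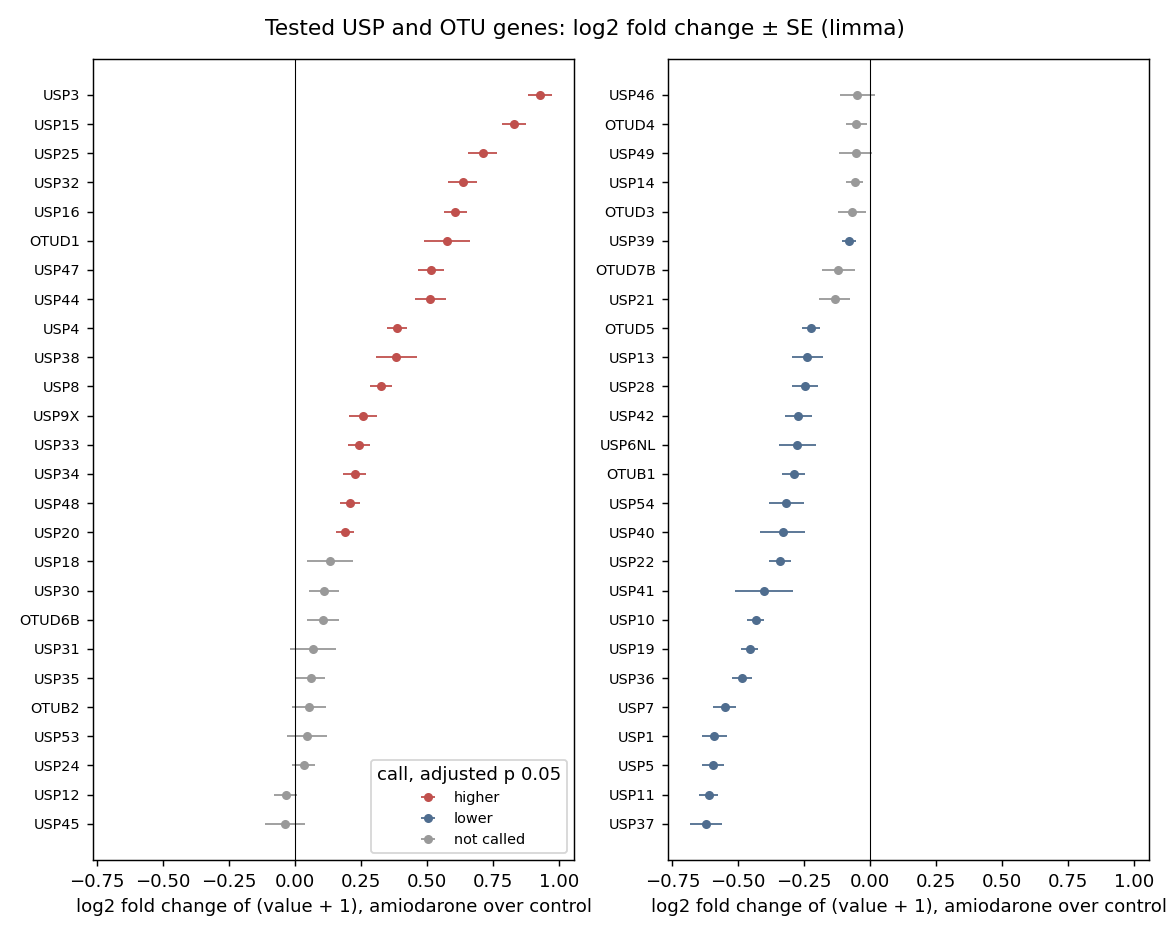
Log2 fold change of value + 1 (amiodarone over control) with its limma standard error for each of the 52 tested genes, the upper range in the left panel and the lower in the right. Red points are the 16 genes called higher, blue points the 19 called lower and grey points the 17 not called; USP3 (0.93) and USP37 (-0.62) mark the ends.

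**Figure D2:**
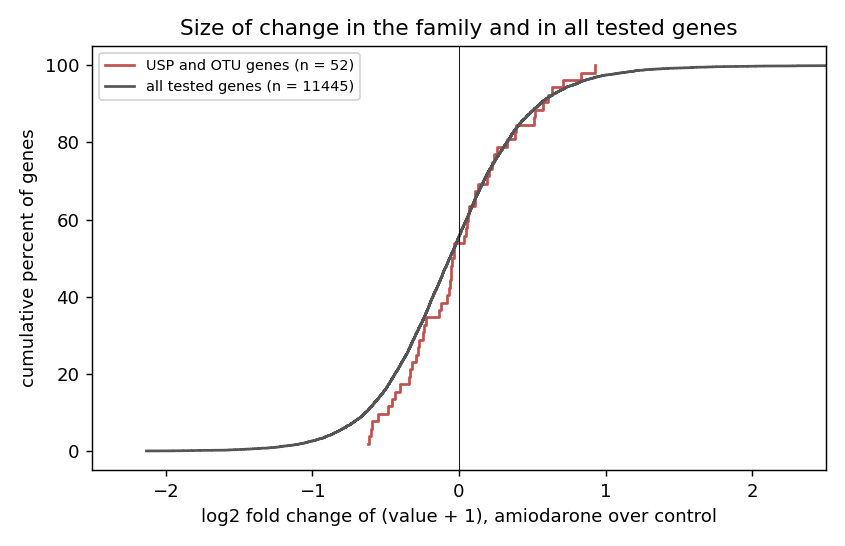
Cumulative percent of genes (vertical axis) by log2 fold change (horizontal axis, amiodarone over control) for the 52 tested USP and OTU genes and all 11445 tested genes. The members' curve ends at 0.93 on the right and starts at -0.62 on the left, inside the tails of the grey curve of all genes.

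Ordered by level, the family had the same leader in both groups. USP39, a spliceosome factor that lacks deubiquitinase activity, had the highest value, at 44.06, 43.97 and 44.41 after amiodarone and 46.68, 47.18 and 46.18 in controls. The mean after amiodarone was 0.946 times that of controls (log2 fold change -0.08, SE 0.027, limma adjusted p = 0.0213), a small change whose call ended in several alternatives, among them the replicate block and the median-of-ratios scaling. After USP39 came USP14 (37.5 ± 0.592), OTUD5 (32.7 ± 1.19), OTUB1 (32.5 ± 1.32) and USP48 (32.0 ± 1.33) after amiodarone (SD, n = 3). Ranges of OTUD5, OTUB1 and USP48 overlapped from neighbour to neighbour, while USP14 stood apart from OTUD5. In controls the next places were held by OTUB1 (40.0 ± 2.16), USP14 (39.1 ± 1.13) and OTUD5 (38.4 ± 0.394), with overlapping ranges, followed by USP10 (33.4 ± 0.437) and USP5 (31.4 ± 0.25), which stood apart. Values of 10 or more were reached by 27 members after amiodarone and 24 in controls, and means under 1 were found for 13 members after amiodarone and 12 in controls.

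Genes of histone deubiquitinases moved in both directions, and among them was USP3, the member with the largest rise. USP3 lies at chr15:63504511-63594640 on the plus strand (GENCODE 29, GRCh38) and encodes an enzyme that removes ubiquitin from histones H2A and H2B. Its value was 15.64, 16.76 and 15.77 after amiodarone and 8.25, 7.65 and 7.95 in controls, and every amiodarone library was above every control library. The ratio of means was 2.02, with a log2 fold change of 0.93 (SE 0.046, limma adjusted p = 1.31e-08), the largest of the tested members. USP3-AS1 overlaps 22.7% of its exonic bases on the opposite strand, and since the strand setting of the counting is not given, reads of the pair cannot be told apart.

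USP16, an H2A deubiquitinase with a role in mitosis, also rose. It had 19.53, 20.26 and 20.06 after amiodarone and 12.86, 11.98 and 13.39 in controls (ratio 1.57, log2 fold change 0.61, SE 0.045, limma adjusted p = 3.19e-07). USP44, a regulator of the mitotic checkpoint that also acts on histone H2B, had 8.47, 8.85 and 9.30 after amiodarone and 6.41, 5.57 and 5.79 in controls (ratio 1.498, limma adjusted p = 1.11e-05). In both genes all amiodarone values were above all control values.

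USP22, the deubiquitinase of the SAGA coactivator complex, fell. Its values were 15.25, 15.46 and 15.94 after amiodarone and 19.16, 19.9 and 20.94 in controls (ratio 0.777, log2 fold change -0.34, limma adjusted p = 1.85e-05). The genes of its relatives USP27X (0.46 ± 0.040 after amiodarone, 0.80 ± 0.183 in controls) and USP51 (0.0133 ± 0.0153 after amiodarone, 0.0267 ± 0.0208 in controls) were too low to be tested. USP36, a nucleolar enzyme, had 12.91, 12.68 and 13.08 after amiodarone and 17.82, 18.99 and 18.52 in controls, a ratio of 0.699 (limma adjusted p = 6.85e-07). USP42 also fell (4.32 ± 0.116 after amiodarone, 5.43 ± 0.106 in controls). USP21 (15.2 ± 0.811 after amiodarone, 16.8 ± 1.32 in controls) and the H2B enzyme gene USP49 (4.75 ± 0.184 after amiodarone, 4.98 ± 0.400 in controls) were not called. Of 10 tested members with a listed role in chromatin and transcription, USP7 and USP39 included, 3 rose and 5 fell in the limma fit, where 33.5% of all tested genes rose and 44.8% fell. Their median log2 fold change was -0.11.

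Of 9 tested members with a listed role in DNA repair and replication, 6 fell, 2 rose and 1 was not called. Over all tested genes 44.8% were lower and 33.5% higher. The list was chosen with earlier results of these data known, and another choice of members could give other counts. No test set these few genes, or those of the other role groups here, against all genes. The median of their log2 fold changes was -0.25, beside -0.06 for all tested genes. USP1 lies at chr1:62436297-62451804 (plus strand), and its values were 12.49, 14.06 and 13.48 after amiodarone and 21.54, 20.23 and 19.98 in controls. The groups were well apart, with a ratio of 0.648 and a log2 fold change of -0.59 (SE 0.049, limma adjusted p = 8.32e-07). WDR48, the cofactor that activates USP1, USP12 and USP46, moved the other way, with 14.13, 14.85 and 15.39 after amiodarone and 12.72, 11.86 and 13.0 in controls (limma adjusted p = 0.00129). Genes of the best-known USP1 substrates fell as well. PCNA had 55.56, 55.14 and 55.32 after amiodarone and 204.6, 204.2 and 193.7 in controls, and FANCD2 had 5.22, 5.03 and 5.28 after amiodarone and 9.92, 9.22 and 9.35 in controls.

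USP7 (chr16:8892094-8964514, minus strand), which deubiquitinates MDM2 and many chromatin proteins, had 15.91, 16.89 and 16.48 after amiodarone and 26.06, 23.78 and 23.81 in controls. That is a ratio of 0.669 and a log2 fold change of -0.55 (SE 0.044, limma adjusted p = 6.21e-07). USP11 (chrX:47232690-47248328, plus strand), an enzyme of homologous recombination, had 15.65, 15.73 and 15.19 after amiodarone and 24.09, 24.16 and 24.51 in controls. Replicates differed little, and the log2 fold change was -0.61 (SE 0.035, limma adjusted p = 3.71e-08). USP28, which acts on checkpoint proteins and MYC, fell to 5.92 ± 0.170 after amiodarone, against 7.203 ± 0.265 in controls (limma adjusted p = 9.22e-04). OTUB1, which restrains the ubiquitin-conjugating enzyme UBC13 at DNA breaks, had 34.01, 32.05 and 31.51 after amiodarone and 42.32, 39.68 and 38.04 in controls (ratio 0.813, limma adjusted p = 9.83e-05). OTUD5, an enzyme of repair and interferon signalling, had 32.11, 34.11 and 31.98 after amiodarone and 38.62, 37.91 and 38.56 in controls (ratio 0.853, limma adjusted p = 1.05e-04).

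Of the members on this repair and replication list, USP47 and USP48 rose. USP47, which deubiquitinates DNA polymerase beta and is the closest relative of USP7, had 7.16, 7.33 and 7.08 after amiodarone and 4.83, 4.78 and 4.57 in controls (ratio 1.52, limma adjusted p = 2.62e-06). USP48 had 31.05, 31.36 and 33.5 after amiodarone and 28.54, 27.13 and 26.89 in controls (ratio 1.16). USP24 was not called, at 12.1 ± 0.300 after amiodarone and 11.8 ± 0.356 in controls.

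USP37 had the largest fall of the tested members. It lies at chr2:218450251-218568361 on the minus strand and encodes an enzyme that stabilises cyclin A at the start of S phase. Its values were 3.33, 3.40 and 3.75 after amiodarone and 6.24, 5.78 and 5.72 in controls, a ratio of 0.591 (log2 fold change -0.62, SE 0.060, limma adjusted p = 2.84e-06). VIL1 overlaps 32.8% of its exonic bases on the opposite strand and was listed at 0 to 0.02 after amiodarone and 0.02 to 0.04 in controls. Of 8 tested members with a listed role in the cell cycle, USP7, USP28, USP44 and USP33 included, 4 fell and 2 rose, shares near the 44.8% and 33.5% of all tested genes. Beside this, all 18 genes of a G1/S list fell, with a summed value of 394.9 to 397.5 after amiodarone and 1163 to 1171 in controls. The part of this difference in the members' values was not tested.

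**Figure D3:**
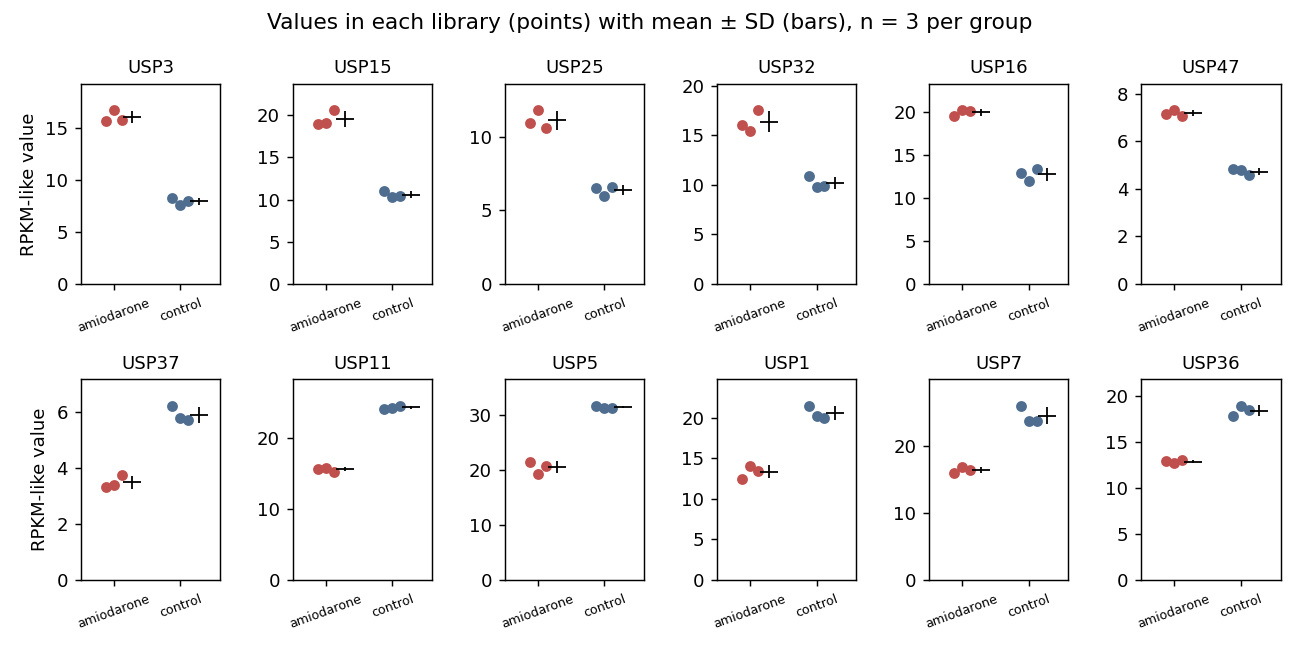
RPKM-like values (vertical axes, each from 0) in the 3 amiodarone and 3 control libraries as points, with mean ± SD as bars, for the 6 genes of the upper row that rose and the 6 of the lower row that fell. The groups do not overlap in any panel; USP3 lies at 15.64 to 16.76 after amiodarone and 7.65 to 8.25 in controls, and USP37 at 3.33 to 3.75 after amiodarone and 5.72 to 6.24 in controls.

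Among 5 members linked to mitochondria and mitophagy, 3 rose and 2 were not called, where 33.5% of all tested genes rose. USP30, the enzyme of the outer mitochondrial membrane, had 4.73, 4.94 and 4.46 after amiodarone and 4.48, 4.25 and 4.15 in controls. The lowest amiodarone value lay just under the highest control value. USP30 was not called (log2 fold change 0.11, SE 0.057, limma adjusted p = 0.103), but it was with median-of-ratios scaling (0.14, limma adjusted p = 0.0397). USP15, which counteracts mitophagy and also regulates SMAD and KEAP1 signalling, had 18.98, 19.08 and 20.62 after amiodarone and 11.01, 10.27 and 10.39 in controls. It lies at chr12:62260338-62417431 on the plus strand, and its ratio of means was 1.85 (log2 fold change 0.83, SE 0.046, limma adjusted p = 3.13e-08).

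USP8, which removes ubiquitin from endosomal receptors, had 14.44, 14.38 and 14.56 after amiodarone and 11.79, 10.81 and 11.39 in controls (ratio 1.28, limma adjusted p = 3.24e-05). USP33 rose to 15.8 ± 0.632, against 13.2 ± 0.296 in controls (limma adjusted p = 3.02e-04). USP35 was not called, at 3.57 ± 0.129 after amiodarone and 3.38 ± 0.0608 in controls. In the limma fit 0 of the 5 genes fell, where 44.8% of all tested genes did. At an unadjusted p under 0.05 the same 3 genes passed, beside 79.7% of all tested genes. With 5 genes and no test of the group, these counts are no result about it. The median of the 5 log2 fold changes was 0.24.

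Of 8 tested genes of endosomal and autophagy enzymes, 4 were higher and 2 lower, beside 33.5% and 44.8% of all tested genes. USP32, an enzyme of the late endosome that acts on RAB7, had 16.07, 15.47 and 17.56 after amiodarone and 10.85, 9.78 and 9.89 in controls (ratio 1.61, log2 fold change 0.64, limma adjusted p = 1.25e-06). USP20 rose to 25.9 ± 0.660 after amiodarone, against 22.6 ± 0.338 in controls (limma adjusted p = 3.78e-04). USP10, which binds the stress granule protein G3BP1 and stabilises Beclin 1, had 23.93, 24.37 and 25.10 after amiodarone and 33.73, 33.55 and 32.90 in controls. It was clearly lower in every amiodarone library (ratio 0.733, limma adjusted p = 3.83e-07). Its partner and substrate genes fell too, with G3BP1 at 32.04, 33.2 and 33.32 after amiodarone and 42.31, 40.86 and 41.14 in controls, and BECN1 at 43.17, 42.73 and 41.3 after amiodarone and 53.12, 53.92 and 54.46 in controls. USP19, which exists in a form anchored in the endoplasmic reticulum, had 18.47, 18.80 and 18.70 after amiodarone and 26.21, 26.01 and 25.73 in controls (ratio 0.718, limma adjusted p = 2.39e-07).

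At the proteasome and in the recycling of free ubiquitin, 0 of 3 tested members rose and 2 fell in the limma fit. The same 2 passed at an unadjusted p under 0.05, beside 79.7% of all tested genes. Over all tested genes 44.8% fell, so 2 of 3 is no result about this group. USP5 (chr12:6852128-6866632, plus strand) had 21.34, 19.20 and 20.76 after amiodarone and 31.66, 31.20 and 31.26 in controls. The ratio was 0.651 and the log2 fold change -0.60 (SE 0.041, limma adjusted p = 1.78e-07). Its relative USP13 had 2.68, 2.67 and 2.75 after amiodarone and 3.37, 3.23 and 3.49 in controls (ratio 0.803, limma adjusted p = 0.0030). USP14, which sits reversibly on the proteasome and trims chains there, had 37.91, 37.74 and 36.81 after amiodarone and 40.39, 38.55 and 38.33 in controls. Its groups did not overlap, but the difference was not called (ratio 0.959, log2 fold change -0.06, SE 0.032, limma adjusted p = 0.117).

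In innate immune and NF-kB signalling, 14 members were tested, of which 4 rose and 3 fell, beside 33.5% and 44.8% of all tested genes. USP25, which acts on TRAF proteins, lies at chr21:15730025-15880069 on the plus strand. It had 10.94, 11.83 and 10.59 after amiodarone and 6.55, 6.0 and 6.62 in controls (ratio 1.74, log2 fold change 0.71, SE 0.055, limma adjusted p = 4.83e-07). OTUD1, a gene of a single exon, had low values of 1.93, 1.77 and 2.41 after amiodarone and 1.06, 1.10 and 0.93 in controls. Its ratio of means was 1.98 but its log2 fold change on log2(value + 1) only 0.58 (SE 0.087, limma adjusted p = 1.03e-04), since adding 1 weighs on low values. USP4, which acts on TRAF and TGF-beta receptor signalling, had 22.65, 22.03 and 23.24 after amiodarone and 17.63, 16.65 and 16.97 in controls (ratio 1.33, limma adjusted p = 3.40e-06).

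USP18, which removes the ubiquitin-like protein ISG15, was not called. Its values were 1.57, 1.55 and 2.05 after amiodarone and 1.57, 1.57 and 1.29 in controls, with overlapping groups (limma adjusted p = 0.185). USP41 is a near-identical copy of USP18, so the division of reads between the pair is uncertain. USP41 had 0.83, 1.03 and 0.92 after amiodarone and 1.74, 1.10 and 1.86 in controls, with 1 control library close to the amiodarone values (limma adjusted p = 0.00646). Of the other OTU genes, OTUB2 (5.47 ± 0.118 after amiodarone, 5.24 ± 0.503 in controls), OTUD3 (4.02 ± 0.0987 after amiodarone, 4.26 ± 0.101 in controls) and OTUD4 (12.01 ± 0.342 after amiodarone, 12.5 ± 0.127 in controls) were not called. Nor were OTUD6B (3.96 ± 0.135 after amiodarone, 3.61 ± 0.234 in controls) and OTUD7B (2.02 ± 0.141 after amiodarone, 2.28 ± 0.0208 in controls). Among the 8 tested OTUD and OTUB genes 1 rose and 2 fell, with a median absolute log2 fold change of 0.11. Among the 44 tested USP genes 15 rose and 17 fell, with a median absolute value of 0.30. Over all tested genes 33.5% rose and 44.8% fell, with a median absolute value of 0.31, near that of the USP genes. The difference between OTU and USP genes was not tested. The OTU calls depend on the scaling, since OTUD3, OTUD4 and OTUD7B were also called lower with libraries scaled to equal sums. Exons of OTUB2 overlap DDX24 on the opposite strand over 15.1% of their bases.

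The remaining called members belong to none of the role groups above. USP9X, a large X-linked enzyme that stabilises MCL1, had 8.69, 9.35 and 9.47 after amiodarone and 7.87, 7.25 and 7.37 in controls (limma adjusted p = 7.76e-04). USP38, whose amiodarone values spread more than its control values, had 4.32, 5.08 and 5.61 after amiodarone and 3.56, 3.68 and 3.50 in controls (ratio 1.40, limma adjusted p = 7.82e-04). USP34, an enzyme of Wnt signalling whose exons overlap AHSA2P on the opposite strand over 18.0% of their bases, rose to 10.6 ± 0.331, against 8.89 ± 0.0757 in controls. USP54 fell to 2.22 ± 0.185 after amiodarone, against 3.02 ± 0.159 in controls, and USP40 to 1.78 ± 0.210 after amiodarone, against 2.51 ± 0.300 in controls. USP6NL fell to 2.64 ± 0.282 after amiodarone, against 3.41 ± 0.176 in controls. Exons of USP54 overlap PPP3CB-AS1 on the opposite strand over 16.1% of their bases. Those not called beside the genes named above were USP12, USP31, USP45, USP46 and USP53, and log2 fold changes of all 17 not called lay between -0.13 and 0.13.

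The balance between closely related genes was compared as well. Ratios were formed within each library for 11 pairs of relatives, and each was compared with a two-sided exact permutation test over libraries, which cannot go below p = 0.1 with 3 against 3. In 9 of the 11 pairs the ratios of the groups did not overlap (exact p = 0.1 each, the smallest possible, 0.122 with Benjamini-Hochberg adjustment over the 11). This count and these p-values say little about the pairs, since all pairs were chosen with earlier results of these data known. The groups also did not overlap in 79.3% of all tested genes taken singly, and ratios that share a gene are not independent. USP15, USP4 and USP11 form one family. The USP15/USP11 ratio was 1.21, 1.21 and 1.36 after amiodarone and 0.457, 0.425 and 0.424 in controls. Per unit of length, USP11 thus had the higher value in every control library and USP15 in every amiodarone library. This order rests on the authors' gene lengths, which are not given. Reads were estimated from the depth with the longest RefSeq-linked transcripts, 14.95 kb for USP15 and 3.338 kb for USP11. With those lengths they were higher for USP15 in both groups, with 2996, 2794 and 2796 in controls against 1464, 1468 and 1473 for USP11. The order of these estimates depends on the lengths assumed, so it does not show which gene gave more reads. The USP4/USP11 ratio was 1.45, 1.40 and 1.53 after amiodarone and 0.732, 0.689 and 0.692 in controls, which is again a change of order in the values per unit of length. Between USP15 and USP4, which both rose, the ratio was 0.838, 0.866 and 0.887 after amiodarone and 0.625, 0.617 and 0.612 in controls.

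USP25 and USP28 also moved in opposite directions, as did USP47 and USP7. The latter were paired after their values were seen, so their opposite directions are a description and not a result of the comparison. The USP25/USP28 ratio was 1.80, 2.06 and 1.79 after amiodarone and 0.937, 0.80 and 0.93 in controls. For USP47/USP7 it was 0.45, 0.434 and 0.43 after amiodarone and 0.185, 0.201 and 0.192 in controls, with USP7 the more abundant throughout. Ratios of USP33/USP20 (0.567 to 0.633 after amiodarone, 0.566 to 0.592 in controls, exact p = 0.3) and USP12/USP46 (9.0 to 9.69 after amiodarone, 8.83 to 9.69 in controls, exact p = 0.5) overlapped. USP5/USP13, OTUB1/OTUB2 and USP54/USP53 ratios were lower after amiodarone, by 0.30, 0.36 and 0.53 in mean log2 ratio, and USP18/USP41 was higher, by 0.94, with the doubt over shared reads given above.

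**Figure D4:**
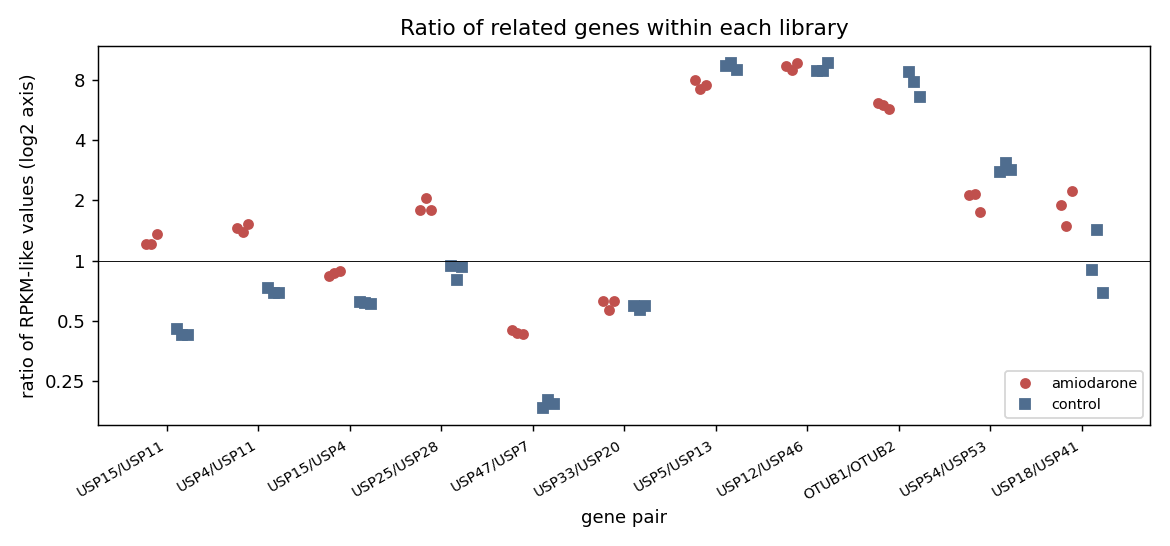
Ratio of RPKM-like values of 2 related genes within each library (vertical axis, log2 scale), with amiodarone libraries as red circles and control libraries as blue squares for 11 gene pairs. USP15/USP11 lies at 1.21 to 1.36 after amiodarone and 0.424 to 0.457 in controls, on opposite sides of 1, and USP33/USP20 and USP12/USP46 overlap.

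The 12 members that were too low to be tested were USP2, USP6, USP26, USP27X, USP29, USP43, USP50, USP51, OTUD6A, OTUD7A, USP17L1 and USP17L4. USP2, a deubiquitinase of cyclin D1, had 0.42, 0.35 and 0.33 after amiodarone and 0.91, 0.76 and 0.94 in controls. USP43 had 0.32, 0.21 and 0.23 after amiodarone and 0.53, 0.54 and 0.64 in controls. OTUD6A, a single-exon gene on the X chromosome, had 0.99, 0.90 and 0.80 after amiodarone and 0.33, 0.34 and 0.50 in controls. The groups of these 3 genes did not overlap, and an estimate from the depth puts OTUD6A at 22 to 28 reads after amiodarone and 10 to 15 in controls, so counting noise is large. Without a filter on low values, USP2, USP43 and USP27X were called lower and OTUD6A higher. USP17L1 and USP17L4, copies of a repeated gene, were listed at 0 in 5 of the 6 libraries each.

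A list of deubiquitinase genes and their relatives outside the USP, OTUD and OTUB names held 28 tested genes. The list goes by name and not by family, so it includes OTU-type genes such as TNFAIP3 and the USP-type gene CYLD. Of these 14 rose and 9 fell, beside 33.5% and 44.8% of all tested genes, a difference that was not tested. The median of their log2 fold changes was 0.12, beside -0.06 for all tested genes and -0.04 for the members taken by symbol. TNFAIP3, the NF-kB inhibitor A20, had 43.36, 43.62 and 44.36 after amiodarone and 21.0, 20.02 and 20.79 in controls (log2 fold change 1.05, limma adjusted p = 3.55e-10). CYLD, another brake on NF-kB, had 15.02, 16.21 and 16.62 after amiodarone and 9.5, 8.56 and 10.3 in controls (0.70, limma adjusted p = 1.52e-06). BAP1, the H2A deubiquitinase of the polycomb system, had 22.43, 23.07 and 22.48 after amiodarone and 36.99, 36.6 and 36.28 in controls (-0.67, limma adjusted p = 7.90e-09). MINDY2 rose as well, at 4.68, 4.53 and 4.86 after amiodarone and 3.07, 2.85 and 3.19 in controls. The proteasome deubiquitinase UCHL5 was not called (22.31, 22.38 and 23.74 after amiodarone, 24.19, 23.88 and 22.63 in controls), and PSMD14 rose slightly (32.52, 34.71 and 33.48 after amiodarone, 29.74, 30.68 and 29.27 in controls).

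Of 27 tested partners and scaffolds of deubiquitinases, 16 were lower and 8 higher, with a median log2 fold change of -0.23. Falls outnumbered rises over all tested genes too (44.8% and 33.5%), and the difference was not tested. RNF31, the catalytic subunit of the linear ubiquitin ligase that OTULIN and CYLD counteract, had 11.69, 13.26 and 12.45 after amiodarone and 19.18, 20.26 and 19.42 in controls. GMPS, an allosteric partner of USP7, had 38.44, 39.99 and 41.54 after amiodarone and 59.73, 57.44 and 57.11 in controls. Of the SAGA module that holds USP22, ATXN7L3 fell (34.17, 34.25 and 35.87 after amiodarone, 42.96, 45.92 and 43.68 in controls), and so did ENY2 (7.01, 6.46 and 6.53 after amiodarone, 7.92, 8.09 and 7.60 in controls). ATXN7, which anchors the same module, rose, with 5.78, 6.23 and 5.92 after amiodarone and 5.02, 4.93 and 5.03 in controls (limma adjusted p = 0.00228). A second ATXN7 gene model on the same strand shares 90.6% of its exonic bases, so its value may hold only part of the reads. For RNF31, AL136295.5 on the same strand shares 34.8%. TRAF3, a substrate of OTUD5, rose, with 15.1, 17.59 and 15.88 after amiodarone and 11.48, 12.35 and 12.01 in controls.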

How the data were processed

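Stranded mRNA libraries were made from 3 amiodarone-treated and 3 control samples, per the labels' protocols. Per the submitters' processing notes, featureCounts, STAR 2.5.3a, the build GRCh38.p12 and fastp 0.23.4 were used, with no order given. Sources used here do not give the strand setting, annotation or normalization. The authors deposited 1 value per gene and library with no stated unit; the values behave like RPKM. Value times the longest RefSeq-linked GENCODE 29 transcript, summed over genes, was 1.165 to 1.189 per library in units of the sum that true RPKM values would give with the authors' own lengths. Depth came from the step of low values, 52.1% to 57.5% of which lay within 0.15 of a whole step; whole reads could not be recovered, so no count model was run.

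Genes valued 1 or more in 3 or more libraries were tested with limma 3.58.1 in R 4.3.3 (eBayes with trend) on log2(value + 1), Benjamini-Hochberg over 11445 genes, threshold 0.05. Fold changes on this scale understate low genes; ratios are of group means of deposited values, ± is SD over 3 libraries. In 5 simulated data sets of 11445 genes for this comparison, 73.7% of 1.2-fold, 100% of 1.5-fold and 0.144% of unchanged genes were called. Few genes were changed there, 335 by 1.2-fold, 335 by 1.5-fold and 330 by 2-fold over the 5 sets, against 56225 unchanged. In the data 78.3% of tested genes were called, which loosens the adjusted threshold, so these rates do not carry over to the reported fit. Named were the 12 called members with the largest change in each direction, 14 set members and related pairs; others are named to account for every member. Members, lists and pairs were chosen with earlier results of these data known, and USP7 with USP47 was paired after their values were seen. Alternatives were other pseudocounts, filters, scalings, limma settings, the replicate block and each library left out. Positions and overlaps are from GENCODE 29 (GRCh38), promoters from RefSeq (GRCh38.p14).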

Additional observations from a re-analysis of the deposited data

How the results depend on the processing

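The 16 members called higher were called in each alternative that tested them except limma's test against a 1.2-fold change, which called 9 higher and 8 lower, and 4472 of all genes, 17 named members and 51 listed other genes (8959, 30 and 98 in the reported fit). Filtering at a minimum of 5 left 34 members in the test, without OTUD1 and USP38. Members called higher numbered 16 and lower 18 to 20 without any 1 library, and the members' median log2 fold change ranged from -0.055 to -0.018 then and was -0.114 with scaling to equal sums. USP39 was the called member lost most often. Genes not called changed sign: USP12 was at 0.002 with the median of ratios and -0.07 to 0.004 without any 1 library, USP53 at -0.001 with equal sums and -0.003 to 0.099 without any 1 library, and OTUB2 at -0.022 with equal sums. With equal sums, members called lower numbered 25, with OTUD3, OTUD4, OTUD7B, USP12 (-0.121), USP14 (-0.147) and USP21 gained, and all genes split into 3098 higher and 5908 lower (3832 and 5127 as reported). USP30 (0.141) passed the threshold with the median of ratios. A replicate block left 16 higher and 19 lower, with USP21 gained and USP39 lost. Deviations of same-numbered libraries correlated at -0.155, -0.0182 and -0.0231, and those of differently numbered libraries at -0.0966 to 0.114. No pairing by number thus showed in the values, which cannot tell whether libraries were prepared in pairs. Members with values under 1 rest on few reads.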

Other observations

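Genes of the ubiquitin supply moved in both directions. Of 17 tested genes of ubiquitin, its relatives and their activating enzymes, 6 rose and 9 fell, beside 33.5% and 44.8% of all tested genes, and the difference was not tested. UBB, a polyubiquitin gene, had 421.0, 400.2 and 412.9 after amiodarone and 549.0, 566.3 and 575.9 in controls (limma adjusted p = 4.49e-08). The activating enzyme gene UBA1 had 58.31, 56.37 and 58.0 after amiodarone and 87.81, 89.15 and 88.67 in controls (limma adjusted p = 4.34e-09). UBA6, the second enzyme that activates ubiquitin, had 9.57, 10.57 and 10.14 after amiodarone and 7.47, 7.51 and 7.53 in controls.

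Among 21 tested genes whose proteins are known substrates of the members, 10 rose and 10 fell. Over all tested genes 33.5% rose and 44.8% fell, and the difference was not tested. HIF1A had 18.46, 19.09 and 19.4 after amiodarone and 8.63, 7.77 and 7.95 in controls. CDC25A fell, with 3.49, 3.77 and 3.47 after amiodarone and 10.78, 11.02 and 11.49 in controls. The mitochondrial substrate gene of USP30, TOMM20, was not called (74.7, 76.68 and 78.47 after amiodarone, 80.64, 80.85 and 78.26 in controls), and VDAC1 fell (57.66, 60.01 and 56.46 after amiodarone, 78.84, 77.29 and 77.83 in controls). These are transcript levels, and protein levels and ubiquitination were not measured here.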
